A study of Mus musculus with 4 samples.

Results

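The response of Batf2 knockout macrophages to R848 was read from 2 microarrays, 1 of untreated cells and 1 of cells after 8 h with R848 at 100 ng/ml. These are 2 of the 4 arrays of the series. The other 2 hold wild-type (WT) macrophages under the same conditions and serve here as the reference response. All cells were bone marrow-derived macrophages of male C57BL/6J mice. The labels give the genotypes as Batf2-/- and WT, with no other allele, promoter or Cre stated. Marrow from femurs was grown for 5 days in medium with 10% serum and macrophage colony-stimulating factor (M-CSF) at 3 ng/ml, with a medium change on day 3. The untreated array is labelled 0 h, so 8 h of further culture and 8 h of R848 cannot be told apart. The number of mice behind each culture is not stated in the labels. Of the 56605 probes on an array, 41235 stood well above background on 1 or both knockout arrays. They gave a value for 19840 of 25107 named genes.

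R848 (resiquimod) is a small synthetic ligand of TLR7, a receptor for single-stranded RNA in the endosomes of mouse macrophages. TLR7 is carried to the endosome by UNC93B1 and signals through the adaptor MYD88, the IRAK kinases and TRAF6 to NF-kB, the MAP kinases and the factors IRF5 and IRF7. The first targets are cytokines, chemokines and their inhibitors, while type I interferon released by the cells acts on its own receptor and, through a complex that holds STAT2 and IRF9, raises a large set of antiviral genes. BATF2 is a basic leucine zipper protein of the BATF family that pairs with JUN proteins, and the comparison asks which of these responses occur in cells that lack it.

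Signals are given relative to the 75th percentile of the array, which is set to 1. A gene was read at its brightest probe, and a difference of at least 2-fold is called higher or lower. If the dimmer signal of a pair lay too near background, the fold is a lower bound, written as "at least". Each group has 1 array, so no difference has a replicate check and no test was made. Across 291 probes printed 10 times, the knockout log2 difference had a median SD of 0.048 between spots, which covers error within the arrays only. Between 60.6% and 71.4% of the probes were well above background on the 4 arrays, which share 1 slide and 1 scan. All 10 macrophage markers were well above background on all 4 arrays, among them Csf1r, the M-CSF receptor, at 73.9 untreated and 95.1 with R848 in knockout cells and Adgre1, the F4/80 antigen, at 74.3 untreated and 171 with R848. Markers of some other cell types differed between the genotypes. Lists of dendritic cell, T and NK cell, and B cell markers differed less, with median knockout minus wild-type differences of log2 0.01, -0.20 and -0.25 untreated. With R848 these medians were log2 -0.09, -0.15 and 0.07. The summed relative signal of 11 mast cell and basophil markers was 3.03 and 3.27 on the knockout arrays against 23.4 and 13.99 on the wild-type arrays, and the mast cell protease gene Cpa3 was not well above background on either knockout array. For 14 neutrophil and granulocyte precursor markers it was 329 and 302 against 613 and 473, of which S100a8 and S100a9 made up most. The median knockout minus wild-type difference over these 14 was log2 -1.40 untreated and -1.20 with R848. For 8 monocyte markers the sum was 214 and 187 against 244 and 201, of which S100a4 made up most, and the median knockout minus wild-type difference was log2 -1.82 untreated and -1.66 with R848. Ly6c2, a surface antigen of inflammatory monocytes, was at 5.88 untreated and 12.3 with R848 in knockout cells, against 33.3 and 52.1 in wild-type cells. The part of these markers in any difference between the genotypes was not tested.

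Batf2 itself was read by 1 probe. Its relative signal was 0.102 untreated and 0.0428 (not well above background) with R848 in knockout cells, against 0.123 and 0.357 in wild-type cells. The untreated signals were low and close in the 2 genotypes. With R848 the wild-type signal was 2.91-fold higher, whereas the knockout signal was not well above background. The position of the probe with respect to the deletion is unknown here, so the probe does not settle the label.

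In knockout cells 1357 of 19840 genes (6.84%) had a signal higher by 2-fold or more after R848, and 1305 (6.58%) a signal lower by as much. At 4-fold the counts were 443 (2.23%) and 236 (1.19%), and at 16-fold 71 (0.358%) and 5 (0.0252%), so large increases outnumbered large decreases. The median over all genes was -0.06 on the log2 scale. Where several probes of such a gene were measured, they had 1 sign for 86.1% of the higher and 87.9% of the lower genes. The 52 gene lists described here hold 870 measured genes, of which 271 were higher, 97 lower and 502 within 2-fold, with a median of log2 0.27. List medians are set against -0.06 over all genes.

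Promoters listed in RefSeq were searched for short motifs, and some of interferon-stimulated genes and of chemokines are shown. The interferon-stimulated response element (ISRE), bound by STAT and IRF factors, was searched as 2 GAAA runs with any 2 bases between them, the AP-1 site as TGANTCA and the kappaB site, bound by NF-kB, by its consensus, each on both strands of RefSeq promoters of GRCm38.p6 that run from 250 bases before to 50 after a start. Shown 5′ to 3′ on the gene's strand are 80 bases upstream of the start of 6 genes whose values follow, 3 antiviral genes and 3 neutrophil attractants, chosen because they hold ISRE or kappaB matches. Capitals mark the matches on either strand.
Ifit1 (chr19:34640750-34640829, strand +): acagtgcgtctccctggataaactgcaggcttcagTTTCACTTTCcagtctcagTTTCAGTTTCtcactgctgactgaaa
Isg15 (chr4:156200852-156200931, strand -): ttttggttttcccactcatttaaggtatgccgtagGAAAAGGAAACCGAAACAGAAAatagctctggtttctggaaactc
Gbp2 (chr3:142620569-142620648, strand +): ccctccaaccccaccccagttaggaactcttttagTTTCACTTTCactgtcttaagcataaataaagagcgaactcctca
Cxcl1 (chr5:90891139-90891218, strand +): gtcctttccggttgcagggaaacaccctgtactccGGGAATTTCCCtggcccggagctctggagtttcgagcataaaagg
Cxcl2 (chr5:90903767-90903846, strand +): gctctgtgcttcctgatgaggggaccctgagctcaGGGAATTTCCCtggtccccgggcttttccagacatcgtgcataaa
Cxcl3 (chr5:90785993-90786072, strand +): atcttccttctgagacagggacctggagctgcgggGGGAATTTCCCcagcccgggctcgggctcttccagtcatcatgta
Ifit1 holds 2 separate ISRE matches and Isg15 3 overlapping ones. The 3 Cxcl promoters carry the same run of capitals, in which the kappaB consensus matches on both strands. Other genes raised by R848 differed in this. Within the 250 bases before the start, all 3 motifs were found in Cxcl10, only kappaB in Oasl1, and none of them in Cmpk2, Irf7, Tnf, Il1b, Acod1 and Marco. For these single genes the 50 bases after the start were not searched.

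Of 19840 measured genes 14650 had a promoter in RefSeq. An ISRE match was present in 1131 of 32851 promoters (3.44%). Among promoters of genes at least 16-fold higher in R848-treated knockout cells it was present in 13 of 62 (21.0%), at 4 to 16-fold in 36 of 376 (9.57%), at 2 to 4-fold in 44 of 869 (5.06%) and within 2-fold in 452 of 15681 (2.88%). A kappaB match was present in 4.51% of all promoters, 16.1% of those at least 16-fold higher, 8.51% at 4 to 16-fold and 4.90% within 2-fold. The AP-1 letters were found in 7.81% of all promoters and in 14.5%, 11.97% and 6.13% of the same 3 classes. Genes at least 4-fold lower held them in 9.48% of 232 promoters, the ISRE in 3.45% and kappaB in 2.59%. By list, the ISRE was in 13 of 24 promoters of the IFIT, MX and OAS list and in 10 of 12 of the interferon-inducible GTPases. The kappaB consensus was in 11 of 26 promoters of NF-kB subunits and regulators and in 3 of 6 of the neutrophil-attracting chemokines. Of 26 NF-kB promoters 0 held the ISRE letters. A match is a stretch of letters and does not show that a factor bound there.

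**Figure D1:**
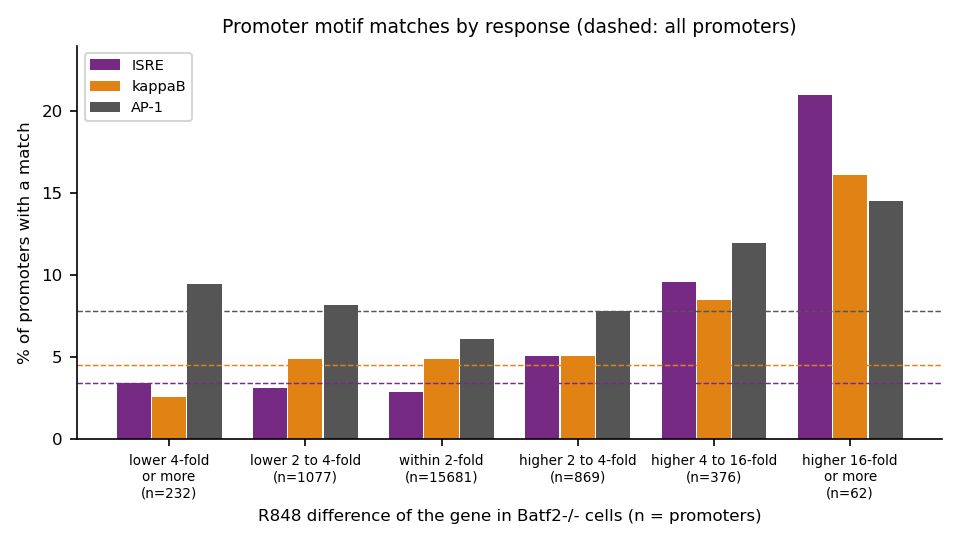
Share of promoters (percent, vertical axis) with an ISRE, kappaB or AP-1 match, by the size of the R848 difference of the gene in Batf2-/- cells, with the number of promoters under each class and the share over all promoters as dashed lines. The ISRE share is 2.88% for genes within 2-fold and 21.0% for genes at least 16-fold higher.

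The 10 largest increases measured on both knockout arrays were mostly genes of inflammation and host defence, and also held Cxcl2, Cxcl1, Il1b and Il12b, which are given with their groups. Saa3, an acute phase protein made by macrophages, had a relative signal of 0.241 untreated and 231 with R848 in knockout cells, against 5.57 and 247 in wild-type cells, which is 961-fold and 44.4-fold higher. The levels with R848 were close in the 2 genotypes and the untreated levels were not. The scavenger receptor gene Marco was at 0.951 untreated and 344 with R848 in knockout cells, against 4.13 and 277 in wild-type cells, 362-fold higher in the knockout. Acod1, which encodes the enzyme that makes itaconate, was at 0.376 untreated and 105 with R848 in knockout cells, against 0.581 and 80.7 in wild-type cells. Clec4e, the C-type lectin Mincle, was at 0.0705 untreated and 13.5 with R848 in knockout cells, against 0.145 and 9.54 in wild-type cells, and Tarm1, an activating myeloid receptor, at 0.175 untreated and 24.3 with R848 in knockout cells, against 0.206 and 18.0 in wild-type cells. In knockout cells these 3 were 279-fold, 191-fold and 139-fold higher. Adamts4, a metalloprotease that cuts aggrecan, was at 0.0563 untreated and 5.11 with R848 in knockout cells, against 0.0527 and 5.36 in wild-type cells, nearly the same in both. The 3 measured Adamts4 probes had the same sign, with an SD of log2 1.46 between them in knockout cells. Among genes not well above background in untreated knockout cells, Shisa3 was at least 101.4-fold and Lad1 at least 50.1-fold higher, while Ccdc96 was at least 40.03-fold higher and well above background on the R848-treated knockout array alone.

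**Figure D2:**
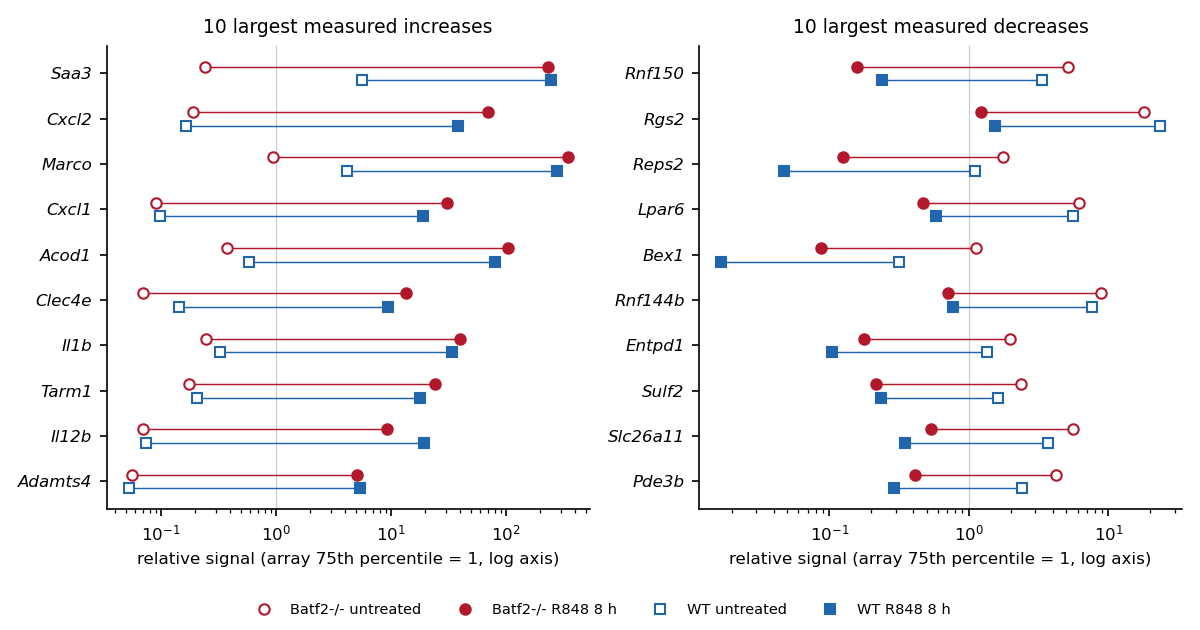
Relative signal (array 75th percentile = 1, log axis) of the 10 largest measured increases and decreases of Batf2-/- macrophages, with 1 array per group. Predicted genes, genes in bright areas, genes under the 75th percentile on both Batf2-/- arrays and genes whose probes differed in sign were passed over. Open symbols are untreated and filled symbols R848-treated cells, circles Batf2-/- and squares WT, and for all 20 genes the difference has the same sign in both genotypes.

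Genes of the TLR7 pathway itself differed little. On this list 2 of 21 measured genes were higher and 1 lower, with a median of log2 0.19. With arrays centred on the median, 4 were higher. Tlr7 was at 1.97 untreated and 1.72 with R848 in knockout cells, against 1.65 and 1.77 in wild-type cells. One of its other 2 probes, which was dimmer, went from 0.933 to 0.447 in knockout cells. Unc93b1, the chaperone of the receptor, was at 9.49 untreated and 8.69 with R848, Slc15a4, an endosomal transporter needed for TLR7 signalling, at 32.2 untreated and 26.2 with R848, and Myd88 at 0.919 untreated and 1.72 with R848. Irak3, an inhibitory member of the IRAK family, was at 1.12 untreated and 8.83 with R848 in knockout cells, against 1.39 and 11.1 in wild-type cells, 7.87-fold higher in the knockout. Irf7, the factor that drives interferon alpha genes, was at 1.57 untreated and 16.5 with R848 in knockout cells, against 8.74 and 20.6 in wild-type cells. It was 10.5-fold higher in the knockout and 2.35-fold in the wild type, where it started at a higher signal. Lgmn, a lysosomal protease, was at 46.0 untreated and 18.6 with R848 and the lowest of the list at log2 -1.31. Traf6 at log2 -0.61 and Irak4 at log2 -0.90 were under 2-fold. For Irak2 the brightest probe was flat at 481 untreated and 437 with R848, while a second probe went from 0.868 to 1.75.

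The inhibitors and subunits of NF-kB were higher. On this list 16 of 25 measured genes were higher and 0 lower, with medians of log2 1.74 in knockout and log2 1.71 in wild-type cells. Nfkbiz, a nuclear IkB protein needed for secondary response genes, was at 0.604 untreated and 17.9 with R848 in knockout cells, against 0.831 and 26.9 in wild-type cells. Traf1, an adaptor of TNF receptors, was at 0.817 untreated and 20.5 with R848 in knockout cells, against 2.34 and 34.7 in wild-type cells. Both were higher with R848 in each genotype, and the treated knockout signal was the lower of the 2. The IkB genes Nfkbie and Nfkbia, which hold NF-kB in the cytoplasm, were 12.2-fold and 8.39-fold higher in knockout cells. Zc3h12a, the ribonuclease Regnase-1 that cuts cytokine mRNA, was 13.8-fold higher and Tnfaip3, the ubiquitin-editing inhibitor A20, 9.10-fold. Of the subunits, Nfkb2 stood at log2 2.35, Nfkb1 at log2 2.07, Rela at log2 1.24 and Rel at log2 0.87. Relb was flat at its brightest probe (log2 -0.23), and both of its other probes were past 2-fold, the larger at log2 1.63. Of the kinases that start the cascade, Ikbkb at log2 0.52 and Chuk at log2 0.22 were within 2-fold.

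Among 11 MAP kinase phosphatases, which switch off ERK, JNK and p38, 4 were higher and 1 lower. Dusp4 was at 4.54 untreated and 31.4 with R848 in knockout cells, against 5.82 and 23.9 in wild-type cells, and Dusp2 at 1.46 untreated and 9.10 with R848 in knockout cells, against 1.83 and 18.6 in wild-type cells, so Dusp4 ended at the higher signal in knockout and Dusp2 at the higher signal in wild-type cells. Dusp16 was 4.37-fold higher, Dusp6 2.37-fold higher and Dusp3 2.60-fold lower in the knockout.

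Of the factors closest to BATF2, Batf was at 0.208 untreated and 2.73 with R848 in knockout cells, against 0.364 and 4.07 in wild-type cells, 13.1-fold and 11.2-fold higher. Batf3, needed for cross-presenting dendritic cells, was at 0.137 untreated and 0.159 with R848 in knockout cells, against 0.119 and 0.198 in wild-type cells, under 2-fold in both. In the whole list of AP-1, BATF and MAF factors 5 of 17 measured genes were higher and 1 lower. The AP-1 subunits Jun (log2 0.18), Junb (log2 -0.03), Jund (log2 0.17) and Fos (log2 -0.60) were within 2-fold in knockout cells, as was Atf3 (log2 0.31). Maff, a small MAF protein, was at 0.101 untreated and 0.605 with R848, 5.96-fold higher.

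Inflammatory cytokines were higher in treated knockout cells, with 12 of 21 measured genes higher and 1 lower and a median of log2 1.71. Il1b was at 0.246 untreated and 39.7 with R848 in knockout cells, against 0.324 and 34.2 in wild-type cells, 161-fold higher in the knockout. This is the brightest of 3 measured Il1b probes, which had the same sign but differed in size, with an SD of log2 2.80 in knockout cells. Il12b, the p40 subunit of IL-12 and IL-23, was at 0.0696 untreated and 9.35 with R848 in knockout cells, against 0.0748 and 19.6 in wild-type cells. The knockout value was 134-fold higher with R848, and the treated wild-type array was the brighter of the 2 treated arrays. Il12a, the p35 subunit of IL-12, was at 0.325 untreated and 2.93 with R848 in knockout cells, against 0.518 and 2.50 in wild-type cells. Tnf was at 0.915 untreated and 44.9 with R848 in knockout cells, against 1.30 and 36.3 in wild-type cells, 49.1-fold higher. Il6 was at 0.0127 (not well above background) untreated and 11.47 with R848 in knockout cells, at least 261-fold higher, but this probe lies in a bright area of the R848-treated knockout array, where neighbouring spots of unrelated genes are raised too. The second Il6 probe was at 0.0112 and 0.665. Il1a was at least 31.7-fold and Il18, whose protein is cut by caspase-1, 4.201-fold higher. The IL-36 gamma gene, listed as Il1f9, was at 0.0732 untreated and 2.47 with R848 in knockout cells, against 0.239 and 2.28 in wild-type cells, 33.7-fold and 9.56-fold higher. Osm, the cytokine oncostatin M, was at 1.70 untreated and 0.802 with R848, 2.12-fold lower. Il23a gave no signal well above background in knockout cells.

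The neutrophil-attracting chemokines, CXCR2 ligands apart from Pf4, were the list with the highest median, log2 6.77 over 6 measured genes, against log2 5.90 in wild-type cells. Cxcl2 was at 0.190 untreated and 70.2 with R848 in knockout cells, against 0.164 and 38.3 in wild-type cells. Cxcl1 was at 0.0906 untreated and 30.6 with R848 in knockout cells, against 0.0993 and 18.9 in wild-type cells. With the untreated values close, both ended higher on the treated knockout array, 369-fold and 337-fold above untreated. Cxcl3 was at 0.00908 (not well above background) untreated and 28.5 with R848 in knockout cells, at least 649.9-fold higher. Cxcl5 was at 1.05 untreated and 37.1 with R848, 35.3-fold higher. Pf4, which is made by megakaryocytes and macrophages, was 2.68-fold higher, and Ppbp stood at log2 0.28.

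Of the CC chemokines beside the CCR2 ligands, 3 of 8 measured genes were higher and 1 lower (median log2 0.76). The 3 that were higher were Ccl5, Ccl3 and Ccl4, which draw monocytes and T cells. Ccl5 was at 3.79 untreated and 115 with R848 in knockout cells, against 5.50 and 143 in wild-type cells, 30.5-fold higher in the knockout. Ccl3 was at 0.722 untreated and 47.4 with R848 in knockout cells, against 0.952 and 51.0 in wild-type cells, and Ccl4 at 2.25 untreated and 61.8 with R848 in knockout cells, against 2.23 and 121 in wild-type cells, so Ccl4 ended at the lower signal in the knockout. Of the monocyte-attracting CCR2 ligands, Ccl2 was at 0.669 untreated and 1.98 with R848, 2.97-fold higher, Ccl7 at least 5.50-fold and Ccl12 at least 4.72-fold higher, while Ccl8 stood at log2 0.31. Ccl20, the ligand of CCR6, was at 0.451 untreated and 0.106 with R848 in knockout cells, against 0.0841 and 0.0821 in wild-type cells, with the untreated knockout array the highest of the 4.

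Cxcl10, a CXCR3 ligand induced by interferon, was at 0.0405 (not well above background) untreated and 3.01 with R848 in knockout cells, against 0.133 and 0.973 in wild-type cells. It was at least 68.5-fold higher in the knockout and 7.29-fold in the wild type. Cxcl9, of the same family, was at least 12.3-fold higher. At the brightest probe Cxcl11 was flat, at 196 untreated and 202 with R848. Its 2 measured probes differed in sign in knockout cells, and which transcript each reads was not tested.

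Receptors for these signals split. The formyl peptide receptors Fpr1 and Fpr2, which sense bacterial peptides, were at 0.165 untreated and 10.04 with R848 and at 1.67 untreated and 79.7 with R848. In knockout cells they were 60.8-fold and 47.6-fold higher. Cxcr4, the CXCL12 receptor that holds cells in the marrow, was at 36.2 untreated and 3.605 with R848 in knockout cells, against 39.7 and 7.12 in wild-type cells, 10.1-fold lower. Ccr1 was 2.64-fold lower and Ccr7, which guides cells to lymph nodes, 2.89-fold higher. Over the list of chemoattractant receptors 4 of 15 measured genes were higher and 5 lower, and the median of log2 -0.49 turned positive under some alternatives.

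Feedback inhibitors of cytokine signalling were present among the increases. Socs3, which blocks STAT3 signalling, was at 0.101 untreated and 7.84 with R848 in knockout cells, against 0.0972 and 9.32 in wild-type cells, 77.5-fold and 95.9-fold higher. Il10, the main anti-inflammatory cytokine, was at 0.153 untreated and 1.93 with R848 in knockout cells, against 0.194 and 4.36 in wild-type cells, 12.6-fold higher in the knockout, with the brighter treated signal in wild-type cells. Il1rn, the IL-1 receptor antagonist, was at 3.24 untreated and 11.54 with R848 in knockout cells, against 1.599 and 14.03 in wild-type cells, and Socs1 was 3.78-fold higher. On the whole list 6 of 15 measured genes were higher and 0 lower.

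Antiviral interferon-stimulated genes were higher after R848 in cells that lack Batf2. In the list of IFIT, MX and OAS effectors 19 of 26 measured genes were higher and 1 lower, with a median of log2 2.61 against log2 2.22 in wild-type cells. Ifit1, which binds viral RNA without a methylated cap, was at 0.146 untreated and 11.1 with R848 in knockout cells, against 0.352 and 5.89 in wild-type cells, 75.8-fold and 16.7-fold higher. Mx1, a GTPase that acts on influenza virus, was at 0.194 untreated and 10.5 with R848 in knockout cells, against 0.535 and 6.34 in wild-type cells. Rsad2, the antiviral enzyme viperin, was at 3.37 untreated and 73.9 with R848 in knockout cells, against 6.80 and 31.5 in wild-type cells. Each of these was lower on the untreated knockout array and higher on the treated one than in the wild type. This did not hold for the whole list, as Oas1a, Oas1g, Isg20, Bst2 and Ifitm3 were lower on the treated knockout array than on the treated wild-type array. The same was true of Ifitm1, Ifitm6, Oas1b, Oas1c and Zbp1. Isg15, a ubiquitin-like modifier, was at 1.36 untreated and 26.1 with R848 in knockout cells, against 1.97 and 23.4 in wild-type cells, 19.2-fold and 11.9-fold higher. Oasl1, which limits Irf7 translation, was at 0.119 untreated and 5.52 with R848 in knockout cells, against 0.484 and 3.74 in wild-type cells. The 2'-5' oligoadenylate synthetases Oas1a and Oas3 were 6.37-fold and 4.51-fold higher and the nucleotide kinase Cmpk2 22.2-fold higher. Ifitm6, of the IFITM family, was the member that was lower, by 3.33-fold. Probes of close copies such as Ifit3 and Ifit3b, or Oas1a and Oas1g, may read both genes, which was not tested.

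Of these 26 genes 24 had the larger log2 difference in knockout cells. The median knockout minus wild-type difference of the list was -0.61 on the untreated arrays and 0.28 on the treated arrays, both on the log2 scale. By these medians the list was lower on the untreated and higher on the treated knockout array than in wild-type cells. The difference was also larger in the knockout for 29 of 34 other type I interferon-stimulated genes, with medians of -0.35 untreated and 0.16 treated. For interferon-inducible GTPases it was larger for 17 of 18 measured in both, with -0.31 and 0.39. For NF-kB subunits and regulators it was larger for 12 of 25, with 0.02 and 0.03, and over all genes for 48.2% of 18456, with 0.04 and 0.03. Under each of the 9 processing alternatives the interferon lists kept these signs. Mast cell, basophil, granulocyte and monocyte markers also differed between the genotypes, as given above, and their part in this was not tested.

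Among the other interferon-stimulated genes 26 of 34 were higher and 0 lower, with a median of log2 1.83 (log2 1.27 in wild-type cells). Rtp4, a chaperone that also limits viral replication, was at 2.66 untreated and 38.01 with R848 in knockout cells, against 6.61 and 33.9 in wild-type cells, 14.3-fold higher. Ifi44 was at least 18.7-fold higher, Xaf1, a pro-apoptotic factor, 9.67-fold, and the ADP-ribosyltransferase gene Parp14 8.48-fold. Adar, which edits double-stranded RNA, was 2.65-fold higher, and Pml, of nuclear bodies, stood at log2 0.19. For Parp9 the brightest of 4 probes stood at log2 -0.31 and another at log2 2.13.

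In the list of type I interferons and their receptor pathway 5 of 12 measured genes were higher and 0 lower (median log2 0.38). Stat2, which pairs with IRF9 on the ISRE, was at 2.997 untreated and 15.3 with R848 in knockout cells, against 4.07 and 11.2 in wild-type cells. Irf9 was at 2.18 untreated and 5.51 with R848 in knockout cells. They were 5.09-fold and 2.52-fold higher. The receptor chains Ifnar1 (log2 0.22) and Ifnar2 (log2 0.16) and the kinase Jak1 (log2 -0.26) were within 2-fold. Ifnb1, interferon beta, was at 0.00868 (not well above background) untreated and 0.121 with R848 in knockout cells, against 0.00874 (not well above background) and 0.0766 in wild-type cells, at least 2.77-fold higher in the knockout and low in both. Usp18, which removes ISG15 and dampens the receptor, was 11.95-fold higher. Irf1 was at 4.05 untreated and 14.1 with R848 in knockout cells, against 4.01 and 7.79 in wild-type cells, 3.50-fold higher in the knockout, whereas Irf8, a factor of monocyte development, was 2.32-fold lower.

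Guanylate-binding proteins and immunity-related GTPases, which act on vacuoles that hold microbes, were higher in 15 of 20 cases and lower in 0, with medians of log2 2.34 and log2 1.58. Gbp2 was at 0.451 untreated and 15.3 with R848 in knockout cells, against 0.573 and 10.4 in wild-type cells, 33.9-fold higher in the knockout. Gbp3 was 18.3-fold and Gbp7 16.3-fold higher, and Igtp and Irgm2 were 7.61-fold and 6.09-fold higher. Iigp1 was at 0.892 untreated and 1.36 with R848 at its brightest probe, and a second probe was at 0.0129, not well above background, and at 0.448.

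Sensors of cytosolic nucleic acid followed. Ddx58, the RNA sensor RIG-I, was at 1.54 untreated and 10.2 with R848 in knockout cells, against 2.03 and 9.03 in wild-type cells, 6.63-fold higher, and Ifih1, the RNA sensor MDA5, was 6.499-fold higher. Ifi205, of the PYHIN family, was at 2.24 untreated and 40.9 with R848 in knockout cells, against 3.96 and 30.7 in wild-type cells, 18.3-fold higher. Cgas, the DNA sensor, was 2.49-fold higher, while Sting1, its downstream adaptor, was at 12.2 untreated and 4.01 with R848 in knockout cells, against 10.8 and 3.68 in wild-type cells, 3.04-fold lower. Over the list 9 of 12 measured genes were higher and 1 lower. Of 7 measured Schlafen genes, which include growth regulators, 5 were higher, and Slfn1 was at 0.108 untreated and 2.06 with R848 in knockout cells, against 0.255 and 0.941 in wild-type cells.

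**Figure D3:**
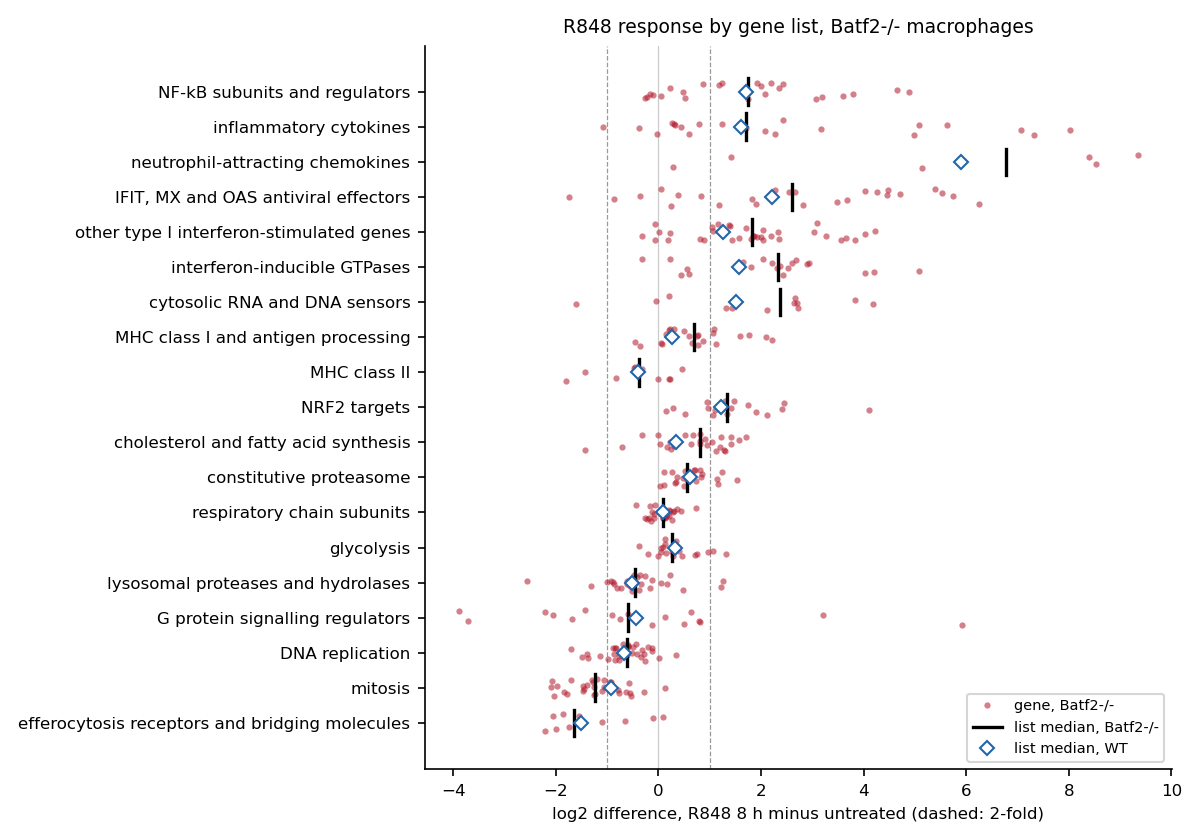
Log2 difference between R848-treated and untreated Batf2-/- macrophages for each measured gene of 19 lists (points, spread vertically), with the list median in Batf2-/- (bar) and WT (diamond) and 2-fold as dashed lines. The medians run from 6.77 for neutrophil-attracting chemokines to -1.65 for efferocytosis genes, and the interferon lists have the higher median in Batf2-/- cells.

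Antigen presentation genes were higher in part for class I and not for class II. In the class I list 7 of 22 measured genes were higher and 0 lower, with a median of log2 0.70 (log2 0.27 in wild-type cells). Tap1, a subunit of the peptide transporter, was at 0.516 untreated and 2.40 with R848 in knockout cells, against 1.14 and 2.33 in wild-type cells, 4.65-fold higher in the knockout. Nlrc5, the activator of class I genes, was 4.30-fold higher, and the immunoproteasome subunits Psmb10, Psmb8 and Psmb9 stood at log2 1.76, log2 1.13 and log2 1.09. The heavy chains H2-K1 (log2 0.59) and H2-D1 (log2 0.06) were within 2-fold. Of 10 class II genes 0 were higher and 2 lower, the peptide-exchange genes H2-DMa and H2-DMb2, by 2.69-fold and 3.50-fold. Cd74, the invariant chain, was at 16.4 untreated and 19.0 with R848 in knockout cells, against 35.7 and 35.8 in wild-type cells, flat in each genotype at a lower signal in the knockout.

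Costimulatory genes were higher in 7 of 15 cases. Cd40, the receptor of the T-cell ligand CD154, was at 0.0661 untreated and 2.37 with R848 in knockout cells, against 0.153 and 2.19 in wild-type cells, 35.8-fold higher in the knockout. Cd274, which encodes PD-L1, was 5.58-fold higher and Icam1 9.55-fold. Cd86 was at 0.0857 untreated and 0.107 with R848 and Cd80 at 3.72 untreated and 4.48 with R848, both within 2-fold. Vsir, which encodes the checkpoint protein VISTA, was 2.68-fold lower.

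Genes of itaconate, nitric oxide, arginine and linked metabolism were mostly higher, with 8 of 14 measured genes higher and 2 lower. Ass1, which rebuilds arginine from citrulline, was at 0.373 untreated and 5.53 with R848 in knockout cells, against 0.552 and 5.56 in wild-type cells, and the arginine transporter gene Slc7a2 at 0.538 untreated and 8.48 with R848 in knockout cells, against 0.447 and 4.90 in wild-type cells. In the knockout they were 14.8-fold and 15.8-fold higher. Gch1, which makes a cofactor of nitric oxide synthase, was 9.83-fold higher, but Nos2, the inducible nitric oxide synthase, was at 1.504 untreated and 2.04 with R848 in knockout cells, against 1.57 and 1.49 in wild-type cells. Sod2, the mitochondrial superoxide dismutase, was at 2.66 untreated and 56.4 with R848, 21.2-fold higher. Nampt, which makes NAD precursors, was at 25.3 untreated and 78.5 with R848 in knockout cells, against 11.9 and 36.5 in wild-type cells, brighter in the knockout on both arrays. Kynu, of tryptophan breakdown, was at least 3.52-fold lower, and Arg1 was not well above background on either knockout array.

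Targets of NRF2, the factor of the oxidative stress response, were higher in 12 of 17 cases and lower in 0, with medians of log2 1.34 and log2 1.23. Slc7a11, the cystine transporter, was at 0.492 untreated and 8.44 with R848 in knockout cells, against 0.241 and 5.15 in wild-type cells, 17.1-fold higher in the knockout. Gclc, which starts glutathione synthesis, was at 6.62 untreated and 36.3 with R848 in knockout cells, against 6.69 and 17.3 in wild-type cells, 5.49-fold and 2.58-fold higher. Txnrd1, a thioredoxin reductase, was 3.74-fold, Nqo1 4.32-fold and Hmox1, heme oxygenase 1, 2.10-fold higher. In the prostaglandin pathway Ptgs2, the inducible cyclooxygenase, was at 0.495 untreated and 7.17 with R848 in knockout cells, against 0.368 and 5.77 in wild-type cells, 14.5-fold higher. Hpgd, which breaks prostaglandins down, was at least 9.05-fold lower and Hpgds, prostaglandin D synthase, 3.90-fold lower.

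Cholesterol synthesis was a list on which the genotypes differed in count. In knockout cells 10 of 27 measured genes of cholesterol and fatty acid synthesis were higher and 1 lower (median log2 0.81), against 1 and 1 of 27 (median log2 0.34) in wild-type cells. Sqle, squalene epoxidase, was at 3.92 untreated and 12.8 with R848 in knockout cells, against 5.68 and 10.3 in wild-type cells, and the untreated wild-type value lies in a bright area. Fdps, which makes farnesyl diphosphate, was at 1.98 untreated and 5.26 with R848 in knockout cells, against 3.80 and 5.27 in wild-type cells. The treated values were close between genotypes, and the untreated ones were lower in knockout cells for both genes. Over the list, the median knockout minus wild-type difference was log2 -0.10 on the untreated and 0.22 on the treated arrays. With bright areas left out it was log2 -0.01 untreated and 0.20 treated, so these 2 genes do not stand for the list. Scd1, a fatty acid desaturase, was 2.69-fold and 2.80-fold lower. Of the 27 genes 23 had the larger log2 difference in the knockout. The knockout count was between 7 and 12 under the alternatives.

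On the export side, the transporter gene Abcg1 was at 28.8 untreated and 7.22 with R848 in knockout cells, against 22.97 and 7.61 in wild-type cells, 3.99-fold lower. Abca1, the other main exporter, was at 31.0 untreated and 18.3 with R848, within 2-fold. Nr1h3, which encodes LXR alpha, was at 7.81 untreated and 21.1 with R848 in knockout cells, against 11.49 and 39.4 in wild-type cells, 2.70-fold higher. On the LXR list 1 of 14 measured genes were higher and 2 lower.

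Genes for the uptake of dying cells were lower. Of 10 measured efferocytosis genes 0 were higher and 7 lower, with medians of log2 -1.65 and log2 -1.51. The receptor kinase gene Mertk was at 2.17 untreated and 0.545 with R848 in knockout cells, against 1.54 and 0.272 in wild-type cells, 3.98-fold lower in the knockout. Its bridging ligands Gas6 and Pros1 were 3.36-fold and 2.92-fold lower. Itgb5, an integrin that binds MFGE8, was at 4.90 untreated and 1.07 with R848 in knockout cells, against 3.50 and 0.724 in wild-type cells, 4.59-fold lower. Havcr2, the phosphatidylserine receptor TIM-3, was 4.13-fold lower, and Axl, a kinase related to MERTK, was at 4.87 untreated and 5.21 with R848, flat. As total RNA of a culture was measured, fewer cells of a type and less RNA per cell cannot be told apart.

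Other surface receptors differed in both directions. The mannose receptor gene Mrc1 was at 1.67 untreated and 0.332 with R848 in knockout cells, against 1.11 and 0.301 in wild-type cells, 5.02-fold lower, and Clec10a, a galactose-type lectin, 3.24-fold lower. Clec4a1, of the DCIR family of lectins, was 5.17-fold higher and Clec5a 5.46-fold higher, while Clec7a, the beta-glucan receptor dectin-1, stood at log2 -0.39. Of the Toll-like receptors, Tlr2, which senses bacterial lipoproteins, was at 0.575 untreated and 3.42 with R848 and Tlr1, its partner, at 0.857 untreated and 12.4 with R848. These were 5.96-fold and 14.5-fold higher, with Tlr9, the DNA sensor that shares the endosome with TLR7, at log2 -0.24. Cd14, the coreceptor of TLR4, was at 5.02 untreated and 20.6 with R848 in knockout cells, against 3.17 and 16.3 in wild-type cells. Nlrp3, the inflammasome sensor, was at 1.42 untreated and 11.1 with R848 in knockout cells, against 1.66 and 9.89 in wild-type cells, 7.83-fold higher, and Casp4, the sensor of cytosolic lipopolysaccharide, 5.000-fold higher. Pycard, the inflammasome adaptor, stood at log2 0.03.

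Complement and acute phase genes were higher in part, 3 of 14 and 7 of 19, with 2 and 1 lower. Cfb, complement factor B, was at 0.400 untreated and 23.7 with R848 in knockout cells, against 1.96 and 25.6 in wild-type cells, 59.3-fold and 13.03-fold higher. C3, the central component, was at 7.46 untreated and 35.6 with R848 in knockout cells, against 32.7 and 66.0 in wild-type cells, 4.77-fold and 2.02-fold higher. For both the treated values were closer between genotypes than the untreated ones. The C1q genes C1qa (log2 -0.47), C1qb (log2 -0.47) and C1qc (log2 -0.40) were within 2-fold. Slpi, an antiprotease, was 9.65-fold higher, Hp, haptoglobin, 5.10-fold and Cp, ceruloplasmin, 8.57-fold.

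The largest decreases measured on both knockout arrays, taken under the same conditions as the largest increases, were of genes with varied roles. Rnf150, a RING finger gene, was at 5.09 untreated and 0.157 with R848 in knockout cells, against 3.36 and 0.238 in wild-type cells, 32.4-fold and 14.1-fold lower. Rgs2, which turns off Gq signalling, was at 18.0 untreated and 1.22 with R848 in knockout cells, against 23.4 and 1.54 in wild-type cells, 14.8-fold and 15.2-fold lower. Lpar6, a receptor for lysophosphatidic acid, was at 6.15 untreated and 0.469 with R848 in knockout cells, against 5.59 and 0.585 in wild-type cells, and Rnf144b, a ubiquitin ligase, at 8.79 untreated and 0.714 with R848 in knockout cells, against 7.57 and 0.770 in wild-type cells. Entpd1, the ectonucleotidase CD39 that removes extracellular ATP, was at 1.97 untreated and 0.177 with R848 in knockout cells, against 1.35 and 0.104 in wild-type cells, 11.2-fold lower in the knockout. Sulf2, a sulfatase of heparan sulfate, was at 2.36 untreated and 0.217 with R848 in knockout cells, against 1.61 and 0.236 in wild-type cells, and Pde3b, which breaks down cyclic AMP, at 4.21 untreated and 0.409 with R848 in knockout cells, against 2.42 and 0.289 in wild-type cells. Reps2, Bex1 and Slc26a11 were 13.8-fold, 13.1-fold and 10.5-fold lower. The probes of Reps2 and Pde3b agreed in sign but not in size. In knockout cells the SD between probes was log2 2.14 over the 2 of Reps2 and log2 1.49 over the 3 of Pde3b. Slco2b1, an organic anion transporter, was at 9.98 untreated and 0.0424 (not well above background) with R848 at its brightest probe, and its second probe stood at -0.18 on the log2 scale. Fgf16 was at least 17.9-fold lower and was well above background on the untreated knockout array alone.

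G protein-coupled receptors and their regulators showed both signs, with 2 of 17 higher and 6 lower. Gpr84, a receptor for medium-chain fatty acids, was at 0.0825 untreated and 5.01 with R848 in knockout cells, against 0.273 and 4.13 in wild-type cells, 60.7-fold and 15.1-fold higher. S1pr1, a receptor for sphingosine 1-phosphate, was 4.16-fold lower. The adenosine receptor gene Adora2b was 6.70-fold higher, and P2rx7, the ATP-gated channel, 2.32-fold lower. Among macrophage lineage factors Cebpb was at 32.2 untreated and 105 with R848 in knockout cells, against 29.0 and 72.9 in wild-type cells, 3.26-fold higher, Cebpa 2.03-fold lower and Klf4 2.19-fold lower. Spi1, which encodes PU.1, stood at log2 0.62. Tsc22d3, the glucocorticoid-induced protein GILZ, was at 17.2 untreated and 2.54 with R848 in knockout cells, against 13.7 and 2.69 in wild-type cells, 6.80-fold lower, and Mir155hg, the host transcript of miR-155, was at least 20.9-fold higher.

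Among 23 regulators of survival 10 were higher and 2 lower. Cflar, the caspase-8 inhibitor cFLIP, was at 5.33 untreated and 27.4 with R848 in knockout cells, against 4.72 and 22.1 in wild-type cells, 5.14-fold higher in the knockout. Fas, a death receptor, was 9.43-fold higher, with probes that did not all go the same way, and Mlkl, the effector of necroptosis, 4.70-fold higher. Gadd45a, a DNA damage response gene, was 2.69-fold lower and Gadd45b, a target of NF-kB, 4.09-fold higher.

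Solute transporters were higher in 10 of 20 cases. Slc2a6, a hexose transporter, was at 0.175 untreated and 3.64 with R848 in knockout cells, against 0.372 and 4.06 in wild-type cells, and Slc2a1, the glucose transporter GLUT1, at 6.05 untreated and 19.8 with R848 in knockout cells, against 4.19 and 11.7 in wild-type cells. They were 20.8-fold and 3.28-fold higher in the knockout. Slc39a14, a zinc and iron importer, was 6.85-fold higher and Slc40a1, the iron exporter ferroportin, 2.39-fold lower. Mt2, a metallothionein, was at 1.68 untreated and 9.89 with R848 in knockout cells, against 2.93 and 5.70 in wild-type cells, 5.90-fold higher.

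Matrix proteases split 4 higher and 4 lower of 13. Mmp14 was at 0.0840 untreated and 0.748 with R848 in knockout cells, against 0.0611 and 0.773 in wild-type cells, Mmp9 6.81-fold higher and Mmp13 6.70-fold higher. Mmp19 was at 31.9 untreated and 8.75 with R848 in knockout cells, against 16.7 and 5.54 in wild-type cells, 3.64-fold lower, and Mmp27 6.35-fold lower. Of 15 integrins and adhesion genes 4 were higher, among them Itga5, the fibronectin receptor chain, at 0.596 untreated and 3.69 with R848 in knockout cells, against 0.577 and 3.995 in wild-type cells, and Itgal, the LFA-1 chain that binds ICAM1, 3.93-fold higher. Of 20 Fc and paired receptors 5 were higher and 3 lower. Pilra, an inhibitory paired receptor, was at 0.806 untreated and 10.9 with R848 in knockout cells, against 1.07 and 10.2 in wild-type cells, 13.6-fold higher, and Fcgr2b, the inhibitory Fc receptor, 2.66-fold higher.

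Genes of cell division were lower in treated knockout cells. On the mitosis list 0 of 30 measured genes were higher and 20 lower, with a median of log2 -1.24, against 11 of 29 lower and a median of log2 -0.92 in wild-type cells. With normexp background correction 9 were lower in the knockout. Of 29 genes measured in both, 4 had the higher log2 difference in the knockout, and the median knockout minus wild-type difference was -0.32 untreated and -0.57 treated. Bub1, a kinase of the spindle checkpoint, was at 0.838 untreated and 0.196 with R848 in knockout cells, against 1.13 and 0.614 in wild-type cells, 4.27-fold lower in the knockout. Cdc25c, the phosphatase that activates CDK1, was at 0.383 untreated and 0.0907 with R848 in knockout cells, against 0.358 and 0.309 in wild-type cells. Cenpa, the centromeric histone, was at 0.931 untreated and 0.227 with R848, 4.10-fold lower, and Kif11, a spindle motor, 3.25-fold lower. The proliferation marker Mki67 was at 8.58 untreated and 4.13 with R848 in knockout cells, against 10.7 and 5.83 in wild-type cells, near 2-fold in both genotypes. Of 33 DNA replication genes 0 were higher and 5 lower (median log2 -0.62), against 11 lower in wild-type cells (median log2 -0.66). Prim1, a primase subunit, was 3.27-fold lower, Rrm1, of ribonucleotide reductase, 2.80-fold, and Mcm7, of the replicative helicase, 2.57-fold. E2f2, a factor of S-phase entry, was 4.44-fold lower, and the inhibitor gene Cdkn1a, p21, was 2.05-fold higher.

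Lists of general cell machinery had medians between log2 -0.45 and 0.56. Of 27 respiratory chain subunits 0 passed 2-fold in either direction, with a median of log2 0.09. Constitutive proteasome subunits had a median of log2 0.56 with 4 of 22 higher, led by Psma6 at log2 1.53. Glycolysis genes had a median of log2 0.27 with 2 of 19 higher, namely Pfkfb3 at log2 1.31 and Pfkl at log2 1.06. Heat shock proteins had a median of log2 0.48, with Hspa1b at log2 1.52 and Hsp90aa1 at log2 1.19. Genes of the unfolded protein response had a median of log2 0.05. Lysosomal genes had a median of log2 -0.45 with 3 of 26 lower, of which Atp6v0d2, a proton pump subunit, was at 59.1 untreated and 10.1 with R848 in knockout cells, against 32.5 and 5.11 in wild-type cells.

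The wild-type response shares no array with the knockout response and can be set beside it. In wild-type cells 1162 of 18762 genes (6.19%) were higher and 1316 (7.01%) lower. Past 4-fold were 349 (1.86%) and 213 (1.14%), and past 16-fold 44 (0.235%) and 5 (0.0266%). Of 1088 genes higher in wild-type cells and measured in both, 777 (71.4%) were also at least 2-fold higher in knockout cells, and these made up 64.9% of the 1198 genes higher in the knockout. Of 1260 genes lower in wild-type cells 669 (53.1%) were also lower in the knockout, or 56.5% of 1185. By the size of the wild-type increase, the share was 63.5% of 775 genes at 2 to 4-fold, 90.9% of 209 at 4 to 8-fold, 87.7% of 65 at 8 to 16-fold and 38 of 39 at 16-fold or more. The remaining gene, LOC434348, lies in a bright area. Of the genes higher in wild-type cells 94.1% were above 0 in the knockout. Genes without a knockout value, such as those not well above background on either knockout array, are left out of these shares. This left 1088 of the 1162 genes higher in wild-type cells and 39 of the 44 past 16-fold. The shares therefore do not cover genes undetected in knockout cells. With no filter the share of increases was 56.3%. Among genes with the brighter array of each genotype at least at its 75th percentile, outside bright areas, the shares were 85.0% of 634 higher and 68.0% of 490 lower. A gene dim in untreated cells that did not rise in the knockout fails this condition. The 85.0% is therefore not independent of the knockout response.

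**Figure D4:**
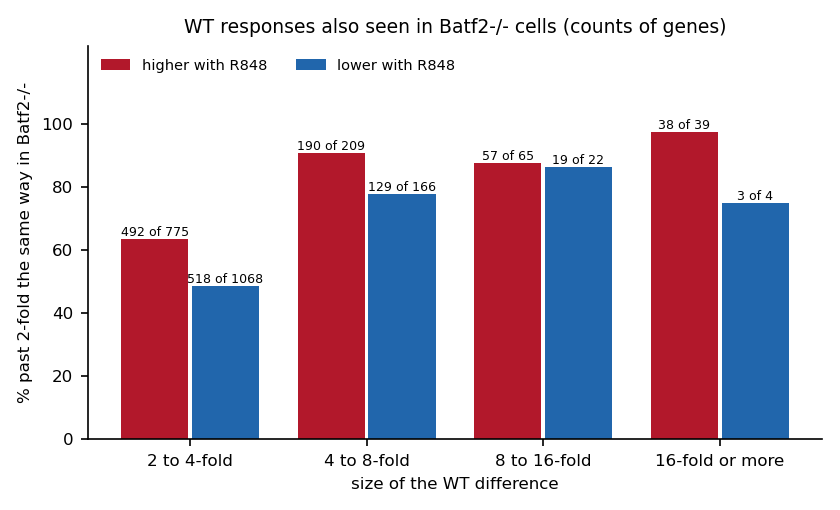
Percent of genes past 2-fold in WT cells (vertical axis) that were past 2-fold the same way in Batf2-/- cells, by the size of the WT difference, with counts of genes over the bars. Only genes with a value in both genotypes are counted. For increases the share runs from 63.5% at 2 to 4-fold to 38 of 39 genes at 16-fold or more, and the last class of decreases holds 4 genes.

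Among genes measured on all 4 arrays, with the brighter array at least at its 75th percentile and all probes in agreement outside bright areas, 0 genes were at least 4-fold higher or lower in wild-type cells and under 1.5-fold in the knockout. Predicted genes were passed over. A gene not well above background on any 1 of the 4 arrays could not be counted, which includes genes undetected in the knockout. Without these conditions 19 of 313 genes at least 4-fold higher and 19 of 192 at least 4-fold lower in wild-type cells were under 1.5-fold in knockout cells. Conversely, 12 of 382 genes at least 4-fold higher in the knockout were under 1.5-fold in the wild type, and 22 of 185 lower. Of these, 2 met the conditions and are named. Neurod2, a neuronal factor, was at 6.91 untreated and 1.03 with R848 in knockout cells, against 0.888 and 0.644 in wild-type cells. Cdhr5, a protocadherin of the gut brush border, was at 1.09 untreated and 0.212 with R848 in knockout cells, against 0.1999 and 0.143 in wild-type cells. For both genes the untreated knockout array was the highest of the 4.

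**Figure D5:**
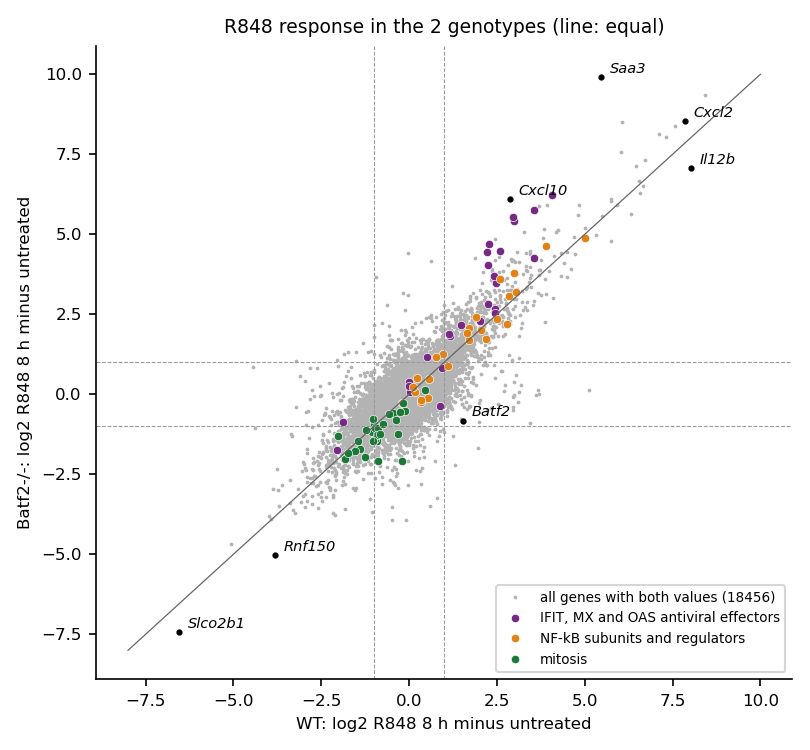
Log2 difference between R848-treated and untreated cells in WT (horizontal axis) and Batf2-/- macrophages (vertical axis) for 18456 genes, lower bounds included, with 3 lists coloured, 7 genes named, 2-fold as dashed lines and equal responses as the solid line. Most IFIT, MX and OAS genes lie above the line, NF-kB genes lie on both sides of it, and Batf2 lies at 1.54 in WT and -0.82 in Batf2-/- cells.

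For 50 of the 502 list genes within 2-fold at the brightest probe, another measured probe passed 2-fold. Ptges, prostaglandin E synthase, was flat at 91.2 untreated and 98.0 with R848, while another probe went from 0.179 to 2.75, and for Tnfrsf1b another probe went from 9.36 to 31.6. Tnfsf10, the death ligand TRAIL, was at 0.928 untreated and 0.985 with R848, and its second probe was at 0.00942, not well above background, and at 0.564. For such genes the lists give the brightest probe, and which transcript each probe reads was not tested.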

How the data were processed

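Total RNA was labelled with Cy3 and hybridised to Agilent mouse arrays, 1 array per group. The intensity values are gProcessedSignal as deposited by the authors, which per the file headers come from Agilent Feature Extraction, version 11.5.1.1. The authors' deposited table of scaled intensities equals these signals times 1 factor per array (3.72 to 4.13, within 1% for 100% of spots), and the origin of the factor is unknown here.

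Control spots and spots marked as outliers were left out. Signals were put on the log2 scale, the 75th percentile over non-control probes was subtracted and spots of a probe were averaged. Of 56605 probes, 40458 were named, most through the gene IDs of the authors' table updated with RefSeq. A gene was read at its brightest probe over the 4 arrays, if at least 0.5 of that probe's spots were well above background on 1 array of the comparison. The dimmer array then took the higher of its own value and the lowest value well above background on that array. Bright areas are spots where over 15% of neighbours, 3 spots each side, exceed the other arrays by more than 2-fold. No array had a saturated spot. With 1 array a group no test was made.

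Named were Batf2, up to 10 largest measured differences and 5 lower bounds each way, up to 6 leading members of a list and up to 3 the other way, and genes past 4-fold in 1 genotype and under 1.5-fold in the other. List members within 2-fold, and some others, were named for their known role after their values were seen. The members and lists were chosen with earlier results of these data known. Alternatives were median centring, quantile normalization, normexp (limma 3.58.1, R 4.3.3, offset 50, on median signals, as the files hold no mean signal), the authors' table, stricter and no filters, the mean over probes, and flagged spots or bright areas kept or left out. Calculations used Python 3.11.15, numpy 2.4.6 and pandas 2.3.3 and were tested on simulated data. Values of some list members are not reported here.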

Additional observations from a re-analysis of the deposited data

Results flagged for a closer look

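Among genes measured in both genotypes, 11 were past 2-fold in opposite directions. They are 9230116N13Rik, Cdkl3, Chrna1, Gldn, Lrrc8e, Mepe, Pcdhb22, Prkce, S1pr4, Tcp10b and Wnt8b, and 0 of them reached the 75th percentile of the array in the knockout. Each genotype has 1 untreated and 1 treated array, so none of the differences given here was tested.

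Among list genes, 10 had differences of opposite sign with at least 1 past 2-fold and the 2 at least 2-fold apart. If 1 array of a pair was not well above background, the value is a bound and the size of the difference is at least that given. This holds for both values of Clec4a2 and Pdgfra and for the knockout values of Batf2, C2 and Vpreb1. On the log2 scale, Batf2 stood at -0.82 in knockout and 1.54 in wild-type cells. C2, a complement component, stood at -1.02 and 0.38, and Clec4a2, an inhibitory lectin, at 1.11 and -0.13. Edn1, endothelin 1, stood at -0.03 and 1.30. F3, tissue factor, stood at 0.38 and -1.14. Gaa, lysosomal alpha-glucosidase, stood at 0.23 and -1.88, with the untreated wild-type value in a bright area and 3 probes that did not all go the same way. Slfn3, a Schlafen gene, stood at 2.02 and -0.24. The remaining genes are markers of other cell types. Gp9 stood at 0.09 and -1.45, Pdgfra at 1.11 and -0.16, and Vpreb1 at -1.96 and 0.43.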

How the results depend on the processing

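With normexp background correction 810 genes were higher and 547 lower in knockout cells, against 1357 and 1305, and 702 higher and 575 lower in wild-type cells, against 1162 and 1316. With no filter and no lower bounds 2279 genes were lower in knockout and 2261 in wild-type cells. Of genes higher in wild-type cells, 67.3% were higher in the knockout with median centring, 79.3% with normexp and 56.3% with no filter, against 71.4%. Of genes lower in wild-type cells 56.6% were lower in the knockout with normexp and 41.8% with no filter, against 53.1%. Median centring moved the median of all genes by 0.14 in knockout and 0.16 in wild-type cells on the log2 scale. Genes higher then made up 63.1% of those past 2-fold in the knockout, against 51.0%, and 61.0% in the wild type, against 46.9%.

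Of 399 list and named genes past 2-fold in the knockout, 0 reversed under any of the 9 alternatives. Past 2-fold stayed 376 with median centring, 385 with quantile normalization, 324 with normexp and 376 with the mean over probes. The total of list genes past 2-fold was 304 to 380, against 368. No paired analysis was possible because each group has 1 array, and for the same reason no replicate could be left out. Genes near background have bounds only, and spread between cultures was not measured.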
